A study of Mus musculus with 5 samples.

Results

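The clustered protocadherin genes were followed in mouse forelimb RNA. Members were the gene symbols named for the alpha (Pcdha), beta (Pcdhb) and gamma (Pcdhg) clusters that had at least 10 counts in 2 or more of the 5 libraries. Of 23284 symbols, 59 carried such a name and 48 were kept, 5 of 15 in the alpha cluster, 21 of 22 in the beta cluster and 22 of 22 in the gamma cluster. The gamma members comprised 12 of type A, 7 of type B and 3 of type C. The clusters lie side by side on mouse chromosome 18, in the order alpha, beta, gamma.

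Total RNA was depleted of ribosomal RNA and sequenced from 3 kinds of tissue. The mutant group was distal forelimb at E11.5 from Hoxa13-/-;Hoxd13-/- embryos on a mixed C57BL/6 and CD1 background (2 libraries). Its Hoxa13 allele carries a neomycin cassette in the coding region and its Hoxd13 allele carries lacZ in the first exon, and both alleles are constitutive. The wild-type group was distal forelimb at E11.5 on the same mixed background (2 libraries). The earlier group was whole forelimb bud at E10.5 from CD1 embryos, with no genotype in its label and 1 library. Each E11.5 library came from a pool of dissected tissue, and the labels call the 2 pools of a genotype independent, so p-values measure the spread between pools.

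Clustered protocadherins are cadherin-like adhesion proteins of the cell surface, best known in the nervous system. There each neuron switches on a few promoters from the clusters, and the resulting mixture gives the cell an identity by which its branches recognise and avoid each other. In the alpha and gamma clusters each variable exon has its own promoter and is spliced to constant exons shared by the whole cluster, whereas each beta gene is a single exon with no constant part. CTCF and cohesin join the variable promoters to distant enhancers, DNA methylation and SMCHD1 keep promoters silent, and the C-type genes are expressed more uniformly between neurons than the others.

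Gene counts ranged from 45115494 to 84172202 per library, and 18039 to 18415 genes had a count. Levels are given as CPM, read counts relative to library size, scaled by TMM, a scaling that equalises the bulk of genes between libraries. Hoxd13, one of the targeted genes, had 45.9 and 38.2 CPM in the mutant, against 238 and 243 CPM in wild type (log2 -2.50 with SE 0.10, edgeR quasi-likelihood test with Benjamini-Hochberg adjusted p = 1.12e-07). Hoxa13 had 46.2 and 38.1 CPM in the mutant and 48.9 and 46.6 CPM in wild type. Both alleles carry inserted sequence, and the parts of each gene that the reads came from were not examined. The forelimb gene Tbx5 lay at 76.8 to 97.0 CPM in all libraries, the hindlimb gene Tbx4 at 6.66 to 10.04 CPM and the hindlimb gene Pitx1 at 0 to 0.384 CPM. Wild-type replicate 2 stood apart from the other E11.5 libraries for the gamma cluster. The gamma sum and the median gamma fold change are therefore given with and without it.

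The gamma cluster supplied most of the clustered protocadherin RNA in every library. Summed over its 22 members it reached 201 and 215 CPM in mutant libraries, 193 and 149 CPM in wild-type libraries and 169 CPM at E10.5. The beta cluster summed to 56.8 and 59.5 CPM in the mutant, 61.1 and 65.6 CPM in wild type and 32.4 CPM at E10.5. The 5 kept alpha members summed to 1.51 and 1.21 CPM in the mutant, 1.60 and 1.41 CPM in wild type and 0.245 CPM at E10.5. Alpha symbols not kept held further counts that this sum leaves out. Gamma genes thus held 77.5% and 78.0% of kept members' counts in the mutant, 75.5% and 69.0% in wild type and 83.8% at E10.5. Kept alpha genes held under 1% throughout. These are bulk samples, in which fewer expressing cells and less RNA per cell cannot be told apart.

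**Figure D1:**
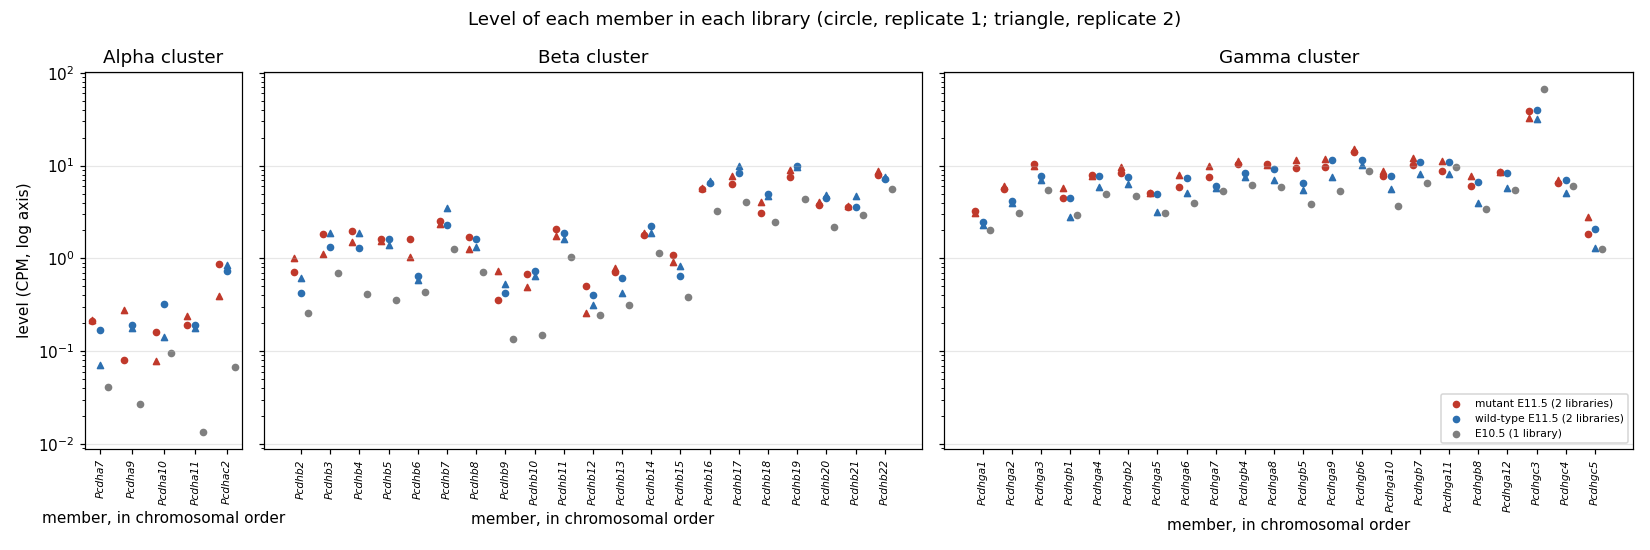
Level of each kept member in CPM (log axis) in the mutant libraries (red), the wild-type E11.5 libraries (blue) and the E10.5 library (grey), with members in chromosomal order and replicates 1 and 2 as circles and triangles. Pcdhgc3 stands above every other member in each library, beta members 16 to 22 above beta members 2 to 15, and all alpha members below 1 CPM.

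Levels of different genes were compared per kb of exon not shared with another member, because reads in the constant exons belong to no single member. Per private kb, the gamma members ran from 0.885 CPM (Pcdhgc5) to 13.9 CPM (Pcdhgc3) in the mutant mean, from 0.644 to 14.0 CPM in the wild-type mean and from 0.483 to 26.1 CPM at E10.5, with the same genes at both ends. Pcdhgb6 came next, at 5.66 CPM per private kb in the mutant mean and 4.22 in the wild-type mean, and Pcdhga11 came next at E10.5, at 3.65. Pcdhgc3, whose product promotes dendrite branching and binds Axin1 in mouse neurons, thus led the cluster per private kb in every group. The counting mode is not given, so these are levels of gene symbols and may differ from isoform levels. The median gamma member had 3.07 CPM per private kb in the mutant, 2.46 in wild type and 1.87 at E10.5, while the median beta member had 0.443 in the mutant, 0.424 in wild type and 0.183 at E10.5.

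Within the beta cluster the genes nearest the gamma cluster were the most abundant per length. The 7 genes from Pcdhb16 to Pcdhb22 ranged from 0.711 to 1.49 CPM per private kb in the mutant, 0.952 to 1.96 in wild type and 0.494 to 0.916 at E10.5. The 14 genes from Pcdhb2 to Pcdhb15 ranged from 0.125 to 0.695 in the mutant, 0.119 to 0.820 in wild type and 0.0446 to 0.362 at E10.5. The ranges of the gene groups did not overlap within any of the 3 tissues. The division at Pcdhb16 was chosen after its values were seen, so it is a description with no test. The genes from Pcdhb16 on accounted for 66.3% and 72.1% of beta counts in the mutant, 73.5% and 73.5% in wild type and 76.8% at E10.5. The order of members by level was much the same between groups (Spearman rho over the 21 beta members 0.98 between mutant and wild-type means and 0.95 between wild-type mean and E10.5, and over the 22 gamma members 0.90 and 0.88), with gene length and the wild-type libraries shared by the compared values.

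The alpha cluster lay near the limit of detection in forelimb. Pcdhac2, a C-type gene needed for the even spacing of serotonergic axons in mouse brain, had 54 and 20 counts in the mutant, 34 and 48 in wild type and 5 at E10.5, and had the highest level per private kb of the 4 alpha members with a length (0.209 CPM in the mutant, 0.260 in wild type and 0.0225 at E10.5). It was also the only alpha member kept if 20 counts were asked for, whereas 10 were kept at 5 counts. Just inside the rule, with at least 10 counts in exactly 2 libraries, stood Pcdha7 (13 and 11 counts in the mutant, 8 and 4 in wild type, 3 at E10.5), Pcdha9 (5 and 14 in the mutant, 9 and 10 in wild type, 2 at E10.5) and Pcdha10 (10 and 4 in the mutant, 15 and 8 in wild type, 7 at E10.5). Just outside, with at least 10 counts in 1 library, stood Pcdha5 (8 and 10 in the mutant, 4 and 4 in wild type, 3 at E10.5), Pcdha6 (11 and 8 in the mutant, 7 and 2 in wild type, 1 at E10.5) and Pcdha8 (15 and 6 in the mutant, 4 and 6 in wild type, 0 at E10.5). All 6 are isoforms with their own variable exon. The other C-type alpha gene, Pcdhac1, had 7 and 8 counts in the mutant, 9 and 4 in wild type and 1 at E10.5 and was not kept. The beta symbol left out, Pcdhb1, had 0 counts in all 5 libraries, which allows a level of at most 0.0639 CPM in the shallowest of them (3 counts, counting error only).

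Loss of both Hox genes was compared with wild type at E11.5 in the 4 distal forelimb libraries, the genotype question of the series. Among 16166 genes tested, 617 rose and 540 fell in the mutant (7.16% called, 3.82% rose and 3.34% fell at an adjusted p below 0.05). Of the 48 members 47 were tested and 1 was called, the gamma gene Pcdhgb5, which rose. The median log2 fold change was 0.36 over the gamma members and 0.02 over the beta members, beside -0.00082 over all genes. Positive log2 values are higher in the mutant.

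**Figure D2:**
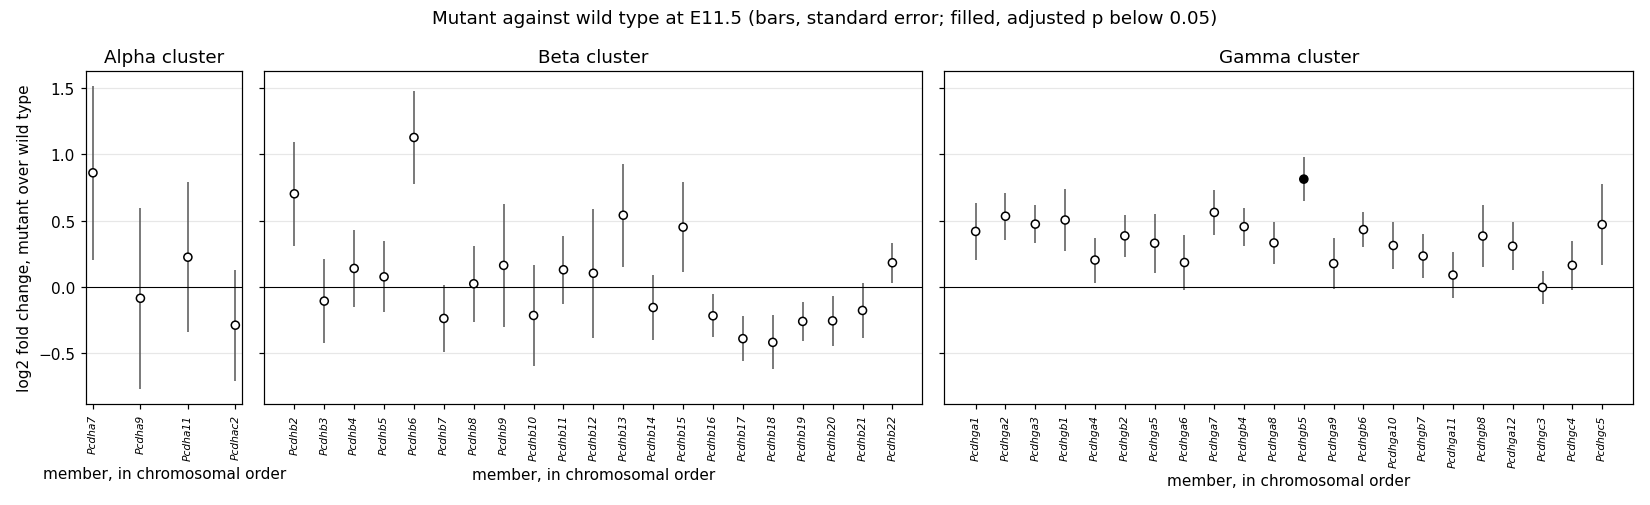
Log2 fold change of each tested member, mutant over wild type at E11.5, with its standard error as a bar, members in chromosomal order and the called member filled. Of the 22 gamma values 21 lie above 0, Pcdhgb5 highest at 0.81, while 11 of 21 beta values lie above 0.

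Pcdhgb5, a B-type gamma isoform, had 9.33 and 11.4 CPM in mutant forelimb, against 6.42 and 5.44 CPM in wild type. Both mutant libraries lay above both wild-type libraries, with means of 10.3 ± 1.43 CPM in the mutant and 5.93 ± 0.69 CPM in wild type (SD, n = 2 each). This was a log2 difference of 0.81 with SE 0.16 (edgeR quasi-likelihood test, adjusted p = 0.0106). Within the gamma cluster Pcdhgb5 took 4.65% and 5.29% of counts in the mutant libraries, against 3.32% and 3.64% in wild type. The exact 95% intervals of these shares, which cover counting error only, ran from 4.29% to 5.72% over the mutant libraries and from 2.96% to 4.06% over the wild-type libraries. With 2 pools a genotype, they do not measure the spread between pools. The rise was not called when mutant replicate 2 was left out (log2 fold change 0.67, adjusted p = 0.0802, edgeR), and stayed called without wild-type replicate 2 (0.71, adjusted p = 0.0143).

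The remaining gamma genes did not pass the test, and 20 of those 21 had positive fold changes (21 of 22 with Pcdhgb5, beside 49.8% of all genes). Pcdhgb6 had 14.1 and 14.9 CPM in the mutant and 11.47 and 10.2 CPM in wild type (log2 0.43, edgeR adjusted p = 0.0700). Pcdhga3 had 10.48 and 9.97 CPM in the mutant and 7.78 and 7.04 CPM in wild type (log2 0.47, edgeR adjusted p = 0.0737). In both genes the mutant libraries lay above the wild-type libraries. Pcdhga7 had 7.60 and 9.79 CPM in the mutant and 6.10 and 5.74 CPM in wild type (log2 0.56, edgeR adjusted p = 0.0739). Pcdhgb4 had 10.48 and 11.1 CPM in the mutant and 8.40 and 7.45 CPM in wild type (log2 0.45, edgeR adjusted p = 0.0828). These groups did not overlap either. Pcdhga3, Pcdhga7 and Pcdhgb4 were singled out after their values were seen, as the other genes with an adjusted p under 0.1. Without wild-type replicate 2 the log2 fold changes were 0.36 for Pcdhgb6, 0.41 for Pcdhga3, 0.53 for Pcdhga7 and 0.38 for Pcdhgb4. In 13 of the 22 gamma genes both mutant libraries exceeded both wild-type libraries, in none did both fall below, and in 9 the groups overlapped. Over all genes tested, 23.9% had both mutant libraries above both wild-type libraries and 25.6% had both below. An unadjusted p under 0.05 with a positive fold change was reached by 7 gamma genes, beside 9.79% of all genes.

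By type, the median log2 fold change over all 4 libraries was 0.32 for the 12 A genes, 0.43 for the 7 B genes and 0.16 for the 3 C genes. Without wild-type replicate 2, the A genes Pcdhga6 (-0.05), Pcdhga9 (-0.10) and Pcdhga11 (-0.09) were below 0. So were the C genes Pcdhgc3 (-0.15) and Pcdhgc4 (-0.05), while the B genes ran from 0.04 (Pcdhgb7) to 0.71 (Pcdhgb5). Groups were separated in 8 A genes, 5 B genes and none of the C genes. Pcdhgc3 had 38.6 and 32.5 CPM in the mutant and 40.1 and 31.8 CPM in wild type, overlapping groups with a log2 difference of -0.0040 and SE 0.13 (edgeR adjusted p = 0.993). Pcdhgc4, the isoform on which neuronal survival depends in mice, had 6.52 and 6.97 CPM in the mutant and 7.08 and 5.07 CPM in wild type (log2 0.16, adjusted p = 0.720, edgeR). Pcdhgc5, a late-expressed isoform in brain, had 1.85 and 2.79 CPM in the mutant and 2.09 and 1.29 CPM in wild type (log2 0.47, SE 0.30, adjusted p = 0.454, edgeR). Among the other abundant gamma genes, Pcdhga11 (log2 0.09), Pcdhgb7 (0.23) and Pcdhga9 (0.18) had overlapping groups.

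The gamma fold changes moved with a single library. Wild-type replicate 2 was the lowest of the 4 E11.5 libraries in all 22 gamma genes. Wild-type replicate 1 exceeded it by a median of 0.40 on the log2 scale (range 0.07 to 0.77), larger than the median difference between genotypes, while the same difference over all genes was -0.00021. The mutant replicates differed by a median of -0.15 (replicate 1 over replicate 2), and mutant replicate 2 was the highest library in 16 gamma genes. Summed gamma levels were 208 ± 10.1 CPM in the mutant and 171 ± 31.0 CPM in wild type (SD, n = 2 each), a log2 difference of 0.28. It is 0.10 when wild-type replicate 2 is left out and 0.47 when replicate 1 is.

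**Figure D3:**
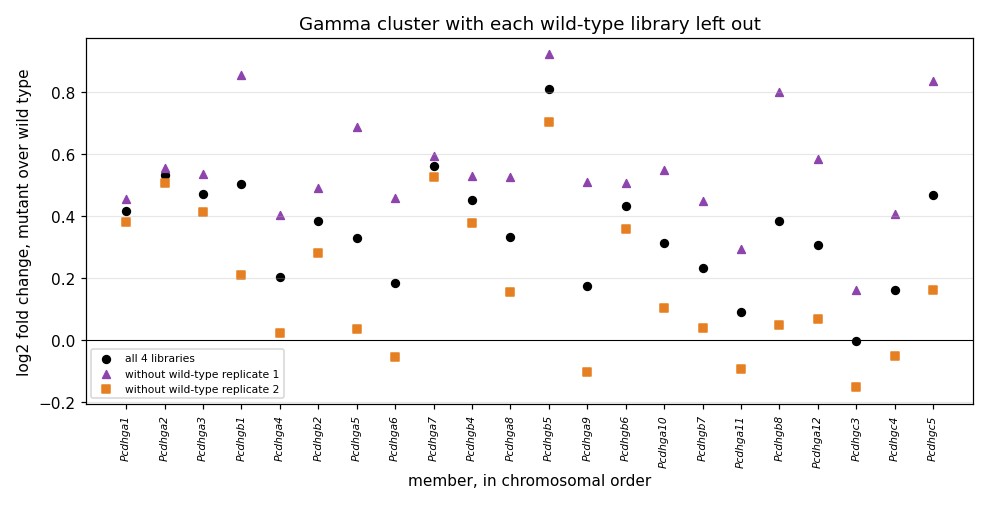
Log2 fold change of each gamma member, mutant over wild type, fitted with all 4 libraries (black circles), with wild-type replicate 1 left out (purple triangles) and with wild-type replicate 2 left out (orange squares). All 22 purple values are positive and 12 of those genes are called, whereas for the orange ones the median is 0.13, 5 values are below 0 and only Pcdhgb5 is called.

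Leaving out wild-type replicate 1 gave 12 called gamma genes, all higher in the mutant, with a median log2 fold change of 0.53. Leaving out wild-type replicate 2 gave a median of 0.13 and 1 called gene. Without mutant replicate 1 the called genes were Pcdhgb5 and Pcdhga7, and without mutant replicate 2 none was called. The replicate difference was not shared by the beta cluster, where wild-type replicate 1 exceeded replicate 2 in 10 of 21 genes (median log2 difference -0.05). It was shared by the large atypical cadherins of the Fat, Dachsous and Celsr families, which act in planar cell polarity and were higher in wild-type replicate 1 in 8 of 8 genes (median 0.75). Dchs1, for example, had 193 and 163 CPM in the mutant and 254 and 107 CPM in wild type. In Fat1 (387 and 415 CPM in the mutant, 641 and 389 CPM in wild type), wild-type replicate 1 stood apart instead. The 8 genes summed to 971 and 1008 CPM in the mutant and 1473 and 854 CPM in wild type. Their pattern thus differed in part from the gamma one, where wild-type replicate 2 was lowest throughout. Among the E11.5 libraries, wild-type replicate 2 also had the smallest share of reads outside annotated genes (30.3%, against 34.4% to 39.6%) and the largest share without a unique alignment (14.2%, against 9.10% to 10.6%). Their part in the gamma result was not tested.

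No beta gene was called in either direction. An unadjusted p under 0.05 was reached by 2 of 21 (19.4% of all genes), and DESeq2 also called none. Pcdhb6 had the largest difference, with 1.61 and 1.03 CPM in the mutant and 0.639 and 0.583 CPM in wild type (log2 1.13, SE 0.35, adjusted p = 0.0797, edgeR quasi-likelihood test). Both mutant libraries were higher, and the adjusted p was 0.0226 with no filter on low counts and 0.0452 without mutant replicate 2. Pcdhb17, the most abundant beta gene per length at E11.5, had 6.26 and 7.64 CPM in the mutant and 8.29 and 9.96 CPM in wild type, with both mutant libraries lower (log2 -0.39, SE 0.17, adjusted p = 0.223, edgeR). Without wild-type replicate 1 its adjusted p was 0.0460.

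The fold changes of the beta genes near the gamma cluster were mostly negative and those of the rest mostly positive. Of the 7 genes from Pcdhb16 to Pcdhb22, 6 had negative fold changes (median -0.26). In 5 of the 7 both mutant libraries lay below both wild-type libraries, beside 25.6% of all genes tested. Pcdhb19 had 7.47 and 8.88 CPM in the mutant and 9.93 and 9.73 CPM in wild type (log2 -0.26, adjusted p = 0.381, edgeR). Pcdhb16 had 5.63 and 5.80 CPM in the mutant and 6.50 and 6.85 CPM in wild type, Pcdhb18 had 3.09 and 4.08 CPM in the mutant and 4.92 and 4.68 CPM in wild type, and Pcdhb20 had 3.73 and 4.06 CPM in the mutant and 4.50 and 4.84 CPM in wild type. Both mutant libraries were lower for each of these genes. The exception in direction was Pcdhb22, the last gene before the gamma side, with 7.90 and 8.79 CPM in the mutant and 7.25 and 7.52 CPM in wild type (log2 0.18, adjusted p = 0.589, edgeR). Of the 14 genes from Pcdhb2 to Pcdhb15, 10 had positive fold changes (median 0.12) and 4 had separated groups, all higher in the mutant. Over the 21 beta genes, both mutant libraries lay above in 5 and below in 5 (23.9% and 25.6% of all genes tested). None of these differences passed the test, and Pcdhb6, Pcdhb18 and the contrast between the gene groups were picked out after their values were seen. Summed beta levels were 58.2 ± 1.90 CPM in the mutant and 63.4 ± 3.20 CPM in wild type (SD, n = 2 each), a log2 difference of -0.12.

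No alpha gene was called among 4 tested, none had an unadjusted p under 0.05, and DESeq2 called none. Counts of this size leave wide errors. Pcdhac2 had 0.869 and 0.396 CPM in the mutant and 0.725 and 0.847 CPM in wild type, overlapping groups with a log2 difference of -0.29 and SE 0.42 (edgeR adjusted p = 0.788). Pcdha7 differed by 0.86 on the log2 scale with SE 0.65 (edgeR adjusted p = 0.546), and it met the 10-count rule through the mutant libraries alone. Pcdha11 had 12 and 12 counts in the mutant and 9 and 10 in wild type (log2 0.22, edgeR adjusted p = 0.893). Changes of this cluster within such errors could not be resolved at this depth.

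Wild-type distal forelimb at E11.5 was next compared with the E10.5 forelimb bud. Stage, dissected part and strain label changed together and cannot be told apart. The E10.5 tissue has 1 library, so no p-value is given. That library had 24.3% of reads outside annotated genes, against 39.2% and 30.3% in wild type. It had 14.8% of reads without a unique alignment, against 10.6% and 14.2% in wild type. The part of these shares in the stage differences was not tested. A gene was counted as past 2-fold when both wild-type libraries differed at least 2-fold from E10.5 in 1 direction, on log2 CPM with a prior count of 2. The wild-type libraries are those of the genotype comparison. Of 16339 genes, 12.7% were past 2-fold higher at E11.5 and 3.89% lower.

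**Figure D4:**
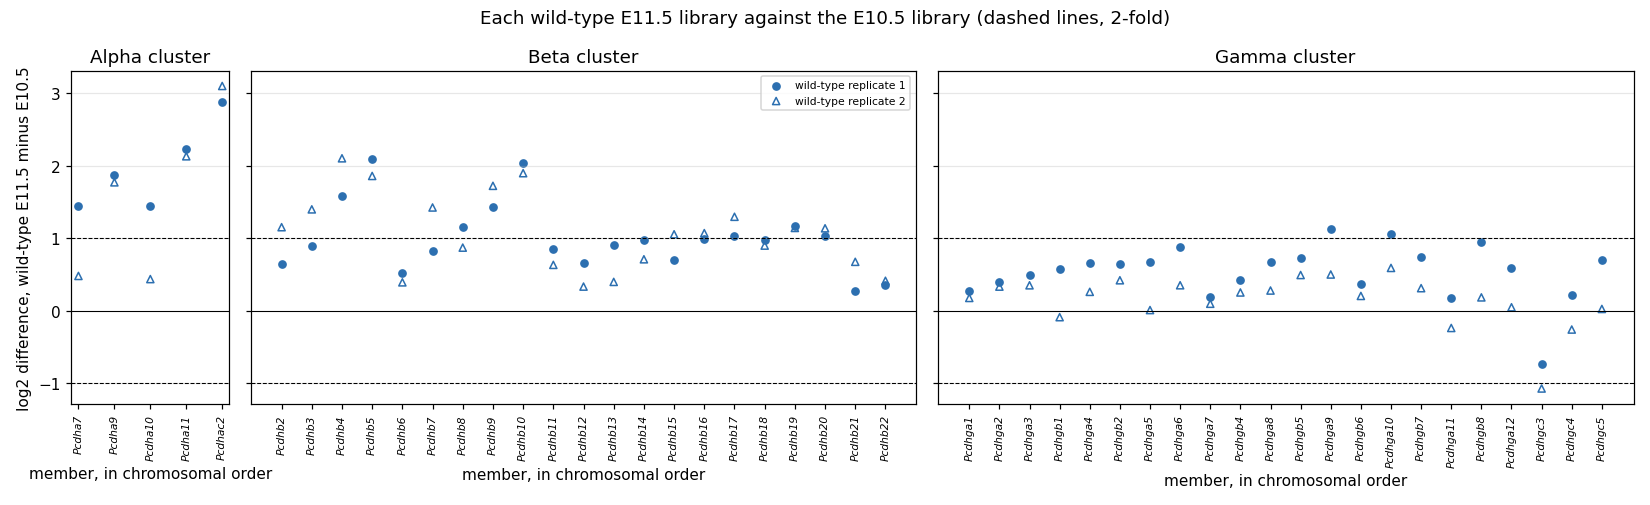
Log2 difference of each member between each wild-type E11.5 library and the E10.5 library (filled circles, replicate 1; open triangles, replicate 2), with members in chromosomal order and dashed lines at 2-fold. All 21 beta members lie above 0 in both libraries, the gamma members lie mostly between 0 and 1, and Pcdhgc3 alone is below 0 in both.

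The beta cluster was higher at E11.5 as a whole. All 21 genes were higher in both wild-type libraries than at E10.5 (43.9% of all genes), 7 were past 2-fold and the median log2 difference was 1.01, beside 0.01 over all genes. The summed level was 1.96 times that of E10.5. The 7 genes past 2-fold were Pcdhb4, Pcdhb5, Pcdhb9, Pcdhb10, Pcdhb17, Pcdhb19 and Pcdhb20. Pcdhb5 had 1.62 and 1.38 CPM at E11.5 against 0.354 CPM at E10.5 (log2 differences 2.09 and 1.86), and Pcdhb10 had 0.725 and 0.653 CPM at E11.5 against 0.150 CPM at E10.5 (2.04 and 1.90). Pcdhb4 had 1.30 and 1.87 CPM at E11.5 against 0.409 CPM at E10.5, and Pcdhb9 had 0.426 and 0.530 CPM at E11.5 against 0.136 CPM at E10.5. The abundant genes were shifted as well, with 8.29 and 9.96 CPM of Pcdhb17 at E11.5 against 4.03 CPM at E10.5, and 9.93 and 9.73 CPM of Pcdhb19 at E11.5 against 4.39 CPM at E10.5. Pcdhb20, also past 2-fold, had 4.50 and 4.84 CPM at E11.5 against 2.18 CPM at E10.5. Pcdhb21 and Pcdhb22 differed least among the genes from Pcdhb16 on, with 7.25 and 7.52 CPM of Pcdhb22 at E11.5 against 5.64 CPM at E10.5. With upper quartile scaling, which moves the median of all genes by 0.15 on the log2 scale, 11 beta genes were past 2-fold.

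The alpha genes had few counts at either stage. Each alpha member met the 10-count rule through E11.5 libraries and none had 10 counts at E10.5, so neither their number nor their sum supports a direction, and the ratios are descriptions. Pcdhac2 had 34 and 48 counts in wild type and 5 at E10.5, a ratio of depth-scaled counts of 11.6 (exact 95% interval 4.79 to 36.8, counting error only). Pcdha11 had 9 and 10 counts in wild type and 1 at E10.5 (ratio 13.5, interval 2.14 to 560), and Pcdha9 had 9 and 10 counts in wild type and 2 at E10.5 (ratio 6.74, interval 1.62 to 59.6). The intervals for Pcdha7 (ratio 2.84, 0.765 to 15.7) and Pcdha10 (ratio 2.33, 0.968 to 6.43) reach below 1.

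The gamma cluster had nearly the same summed level at both stages but a different make-up. Its sum was 193 and 149 CPM at E11.5 against 169 CPM at E10.5, a log2 difference of 0.02. It is -0.18 when wild-type replicate 1 is left out and 0.20 when replicate 2 is. No gamma gene was past 2-fold in both libraries. In 18 of 22 genes both wild-type libraries exceeded E10.5, and the median log2 difference was 0.37, with the largest mean difference at 0.82 (Pcdhga10, with 7.74 and 5.60 CPM at E11.5 against 3.71 CPM at E10.5). Pcdhgc3 was the only gamma gene lower in both, with 40.1 and 31.8 CPM at E11.5 against 66.9 CPM at E10.5 (log2 differences -0.74 and -1.07), where 42.1% of all genes were lower in both. In the 3 others, Pcdhgb1, Pcdhgc4 and Pcdhga11, the wild-type libraries lay on either side of E10.5, as with 7.08 and 5.07 CPM of Pcdhgc4 at E11.5 against 6.08 CPM at E10.5.

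**Figure D5:**
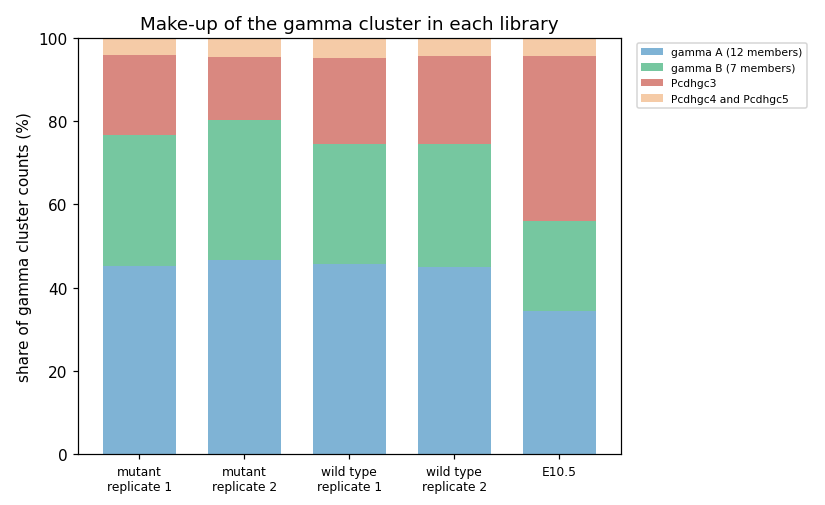
Share of gamma cluster counts (%) taken by the 12 A genes, the 7 B genes, Pcdhgc3, and Pcdhgc4 with Pcdhgc5 in each library. Pcdhgc3 takes 15.1% to 21.3% in the 4 E11.5 libraries and 39.6% at E10.5.

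Pcdhgc3 supplied 19.3% and 15.1% of gamma counts in the mutant, 20.7% and 21.3% in wild type and 39.6% at E10.5 (exact 95% interval 38.8% to 40.5%). The A genes supplied 45.2% and 46.6% in the mutant, 45.7% and 44.9% in wild type and 34.3% at E10.5. The B genes supplied 31.4% and 33.7% in the mutant, 28.9% and 29.6% in wild type and 21.7% at E10.5. Without Pcdhgc3 the gamma sum was higher at E11.5 by 0.41 on the log2 scale. By type, the log2 difference of the sums was 0.42 for the A genes, 0.45 for the B genes and -0.77 for the C genes. The C value rests on Pcdhgc3, which held 66.9 of the 74.3 CPM of C genes at E10.5. Pcdhgc4 lay on either side of E10.5, and Pcdhgc5 was higher in both libraries (2.09 and 1.29 CPM at E11.5 against 1.27 CPM at E10.5).

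Genes known to act on or with the clusters were examined from lists of such genes. Over all genes tested, 7.16% were called, so the absence of calls in lists this short is only a description. None of 11 genes for CTCF, cohesin and their loaders and releasers was called in the mutant (median log2 0.01). Ctcf, the insulator protein bound at cluster promoters, had 161 and 161 CPM in the mutant and 157 and 158 CPM in wild type (log2 0.04, adjusted p = 0.868, edgeR), and 264 CPM at E10.5. None of 14 silencing genes was called (median -0.01), and Smchd1, whose loss derepresses the clusters in mice, had 382 and 397 CPM in the mutant and 397 and 384 CPM in wild type (log2 0.0040, adjusted p = 0.989, edgeR), and 435 CPM at E10.5. Among 12 tested genes for intracellular partners of clustered protocadherins none was called (median -0.02).

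None of 14 genes next to the clusters was called (median -0.04), beside 7.16% of all genes tested. Taf7, a TFIID subunit gene that lies with Slc25a2 between the beta and gamma clusters, had 64.6 and 65.0 CPM in the mutant and 49.6 and 57.2 CPM in wild type (log2 0.29, adjusted p = 0.123, edgeR). Both mutant libraries were higher, and the adjusted p was 0.0124 without wild-type replicate 2. Slc25a2, a mitochondrial ornithine carrier gene, had 0.853 and 0.871 CPM in the mutant and 0.405 and 0.900 CPM in wild type, overlapping groups. On the far side of the gamma cluster, the formin gene Diap1 had 15.996 and 17.4 CPM in the mutant and 20.98 and 14.5 CPM in wild type (log2 -0.08, adjusted p = 0.857, edgeR).

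Other cadherin families set the clusters in context. Of 12 tested protocadherins outside the clusters, 3 rose and none fell (median log2 0.03), where 3.82% of all genes rose and 3.34% fell. Pcdh15, known for the tip links of inner-ear hair cells, had 3.38 and 3.58 CPM in the mutant and 0.789 and 0.971 CPM in wild type (log2 1.98, SE 0.26, adjusted p = 0.000479, edgeR), and 1 count at E10.5. Pcdh19, an X-linked epilepsy gene in humans, had 17.4 and 20.9 CPM in the mutant and 13.7 and 10.6 CPM in wild type (log2 0.67, adjusted p = 0.0173, edgeR). It was not called without mutant replicate 2 (adjusted p = 0.0842). Pcdh17 had 18.7 and 18.9 CPM in the mutant and 13.003 and 14.3 CPM in wild type (log2 0.47, adjusted p = 0.0352, edgeR), and was not called without either mutant library or without wild-type replicate 1 (adjusted p 0.0576 to 0.166). Of 13 classical cadherins and catenins 2 fell and none rose, beside the same shares of all genes. Cdh3, the P-cadherin gene, had 114 and 100 CPM in the mutant and 196 and 177 CPM in wild type (log2 -0.79, adjusted p = 0.000286, edgeR). Cdh6 had 6.28 and 6.13 CPM in the mutant and 10.2 and 10.2 CPM in wild type (log2 -0.71, adjusted p = 0.0117, edgeR; adjusted p = 0.0536 without mutant replicate 2). None of 8 atypical cadherins was called (median -0.13), beside 7.16% of all genes tested.

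Because clustered protocadherins are best known in neurons, markers of nerve tissue were measured beside them. The 12 neuronal markers summed to 77.5 and 78.2 CPM in the mutant, 76.5 and 85.0 CPM in wild type and 106 CPM at E10.5. Of 11 tested, Gap43 rose (26.5 and 25.8 CPM in the mutant, 13.1 and 13.4 CPM in wild type), while Tubb3 (7.92 and 8.63 CPM in the mutant, 22.2 and 26.2 CPM in wild type) and Stmn2 (3.17 and 2.32 CPM in the mutant, 7.10 and 9.27 CPM in wild type) fell. Elavl3, Snap25, Syt1, Prph and Nefm were under 1 CPM in every library. The 7 Schwann cell and neural crest markers summed to 32.7 and 38.0 CPM in the mutant, 58.7 and 48.9 CPM in wild type and 22.5 CPM at E10.5. The difference between genotypes lies mostly in Ngfr, which fell (9.08 and 10.7 CPM in the mutant, 27.0 and 22.5 CPM in wild type). Sox10 was higher in both mutant libraries (0.740 and 0.673 CPM, against 0.533 and 0.600 CPM in wild type). The remaining markers had overlapping groups. In the other marker lists, 2 of 7 surface ectoderm genes and 1 of 6 muscle lineage genes fell, 2 of 5 macrophage genes and 1 of 5 erythroid genes rose, and none of 5 endothelial or 5 cartilage progenitor genes was called. Of 8 limb mesenchyme genes 5 fell and 1 rose, Prrx1, with 699 and 708 CPM of Prrx1 in the mutant, 519 and 488 CPM in wild type and 472 CPM at E10.5. Beside these marker calls, 3.82% of all genes tested rose and 3.34% fell in the mutant. Between wild-type E11.5 and E10.5 the neuronal markers did not share a direction. Stmn2, Elavl3 and Syt1 were past 2-fold higher at E11.5, Gap43 and Nefl were past 2-fold lower, and the sum rests mostly on Dcx (25.3 and 27.4 CPM at E11.5, 50.1 CPM at E10.5), Gap43 (13.1 and 13.4 CPM at E11.5, 32.8 CPM at E10.5) and Tubb3 (22.2 and 26.2 CPM at E11.5, 13.2 CPM at E10.5). Of the 7 Schwann cell and neural crest markers 4, Sox10, Erbb3, Ngfr and Fabp7, were past 2-fold higher at E11.5 and none was lower. Also past 2-fold higher were 4 of 5 macrophage, 3 of 6 muscle lineage, 2 of 5 cartilage progenitor and 1 of 7 surface ectoderm genes. Past 2-fold lower were 1 muscle lineage, 1 endothelial and 2 erythroid genes. Over all genes 12.7% were past 2-fold higher at E11.5 and 3.89% lower in this stage comparison. The part of nerve tissue in the cluster levels was not tested.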

How the data were processed

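Per the labels' protocols, Ribo-Zero-depleted total RNA went into strand-specific libraries sequenced at both ends. Per the submitters' processing notes, TopHat2 2.0.13, SAMtools, HTSeq, Cufflinks 2.1.1 and the mm9 build were used. The values the authors deposited are whole-number counts per gene symbol. Annotation, strand setting and counting mode are not given in the sources used here, so near-identical beta copies, overlapping genes and reads in constant exons are uncertain.

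HTSeq's total lines were left out of library sizes (no feature 24.3% to 39.6%, ambiguous 0.75% to 1.14% of reads). The 4 E11.5 libraries were tested with edgeR 4.0.16 in R 4.3.3 (filterByExpr, minimum count 10 and minimum total 15, TMM, genotype as the only term, older quasi-likelihood estimate). P-values were adjusted by the Benjamini-Hochberg method across every gene in the fit. DESeq2 1.42.0, other scalings, no filter and leaving out each library were alternatives. Printed CPM and log2 stage differences were scaled over all 5 libraries. The code was tested on simulated data. Private exon lengths came from GENCODE M21 (GRCm38, none for Pcdha10) and gene order and older names from RefSeq (GRCm38.p6), so no coordinates are given. Listed Diaph1 appears as Diap1, and Dchs2 had no row.

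Named members were those called, the 5 highest by mean CPM per cluster, C-type genes, up to 5 past 2-fold between stages per cluster and direction, and symbols beside the count rule. Also named were called genes of the other lists, and Smchd1, Ctcf, Taf7, Slc25a2 and Diap1. Members and lists were chosen with earlier results of these data known.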

Additional observations from a re-analysis of the deposited data

How the results depend on the processing

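The number of genes called in mutant against wild type was 1157, against 1762 with no filter on low counts and 796 to 2018 with each library left out. The gamma count of 1 was 5 with no filter (Pcdhga3, Pcdhga7, Pcdhgb4, Pcdhgb5 and Pcdhgb6) and 0 to 12 with each library left out. The beta count of 0 was 1 with no filter and 0 to 1 with each library left out, and the alpha count was 0 throughout. The gamma sum differed by 0.10 to 0.47 (log2) with each library left out. The replicate numbers are not stated to pair the pools, and the replicate differences of mutant and wild type correlated at -0.07 over 16738 genes. With the replicate block, 1252 genes were called (676 rose and 576 fell), of which 1 was gamma (Pcdhgb5), 0 beta and 0 alpha.

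Between stages, upper quartile scaling gave log2 sums of 2.77 (alpha) and 1.12 (beta) against 2.62 and 0.97, and 11 beta genes past 2-fold. The alpha members met the count rule through E11.5 libraries, so under either scaling their sum supports no direction. At 1.5-fold there were 16 beta and 2 gamma genes, and with 1 wild-type library left out 8 to 12 beta and 1 to 2 gamma genes (Pcdhgc3 lower, or Pcdhga9 and Pcdhga10 higher). The gamma sum without Pcdhgc3, an alternative chosen after seeing the data, was 0.41. The alpha rule kept 10 genes at 5 counts and 1 at 20 counts.

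Signs turned for uncalled genes with a library left out. Over those fits the log2 fold change ranged from -0.98 to 0.15 for Pcdhac2, -1.16 to 0.59 for Pcdha9, -0.10 to 0.45 for Pcdhb4, -0.0283 to 0.18 for Pcdhb5, -0.43 to 0.61 for Pcdhb9, -0.10 to 0.51 for Pcdhga9, -0.10 to 0.29 for Pcdhga11, -0.15 to 0.16 for Pcdhgc3, -0.0524 to 0.41 for Pcdhgc4, -0.0221 to 0.0318 for Smchd1, -0.0664 to 1.10 for Slc25a2 and -0.31 to 0.20 for Diap1. Pcdhgc3 was 0.00507 with upper quartile scaling. The causes were not tested. With 2 pools a group, and 1 E10.5 library, small differences in members under 1 CPM could not be resolved.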
